A study of Homo sapiens with 8 samples.

Results

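The siOrc6-only regions are stretches of chromatin with an ATAC-seq peak in both lists from cells that received an siRNA against Orc6 (siOrc6) and with no peak in either list from cells that received the control siRNA siGl3. They were chosen by measured values, namely the presence or absence of the authors' peak calls. Overlapping or touching peaks of the 4 lists on chromosomes 1 to 22 and X were merged, and 1973 of the 129052 merged regions (1.53%) met the rule. ATAC-seq marks open chromatin with a transposase that inserts sequencing adapters where DNA is not covered by nucleosomes, and it was applied to U2OS, an established human osteosarcoma line. The 8 libraries made up 4 conditions: siOrc6 untreated, siOrc6 with 5 mM H2O2 for 30 min, siGl3 untreated and siGl3 with the same H2O2 dose. Every condition had 1 library in batch 1 and 1 in batch 2. All cells, controls included, had an siRNA for 72 h, a double thymidine block and a 3 h release, which places them in early S phase.

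Each condition was deposited as 1 peak list that pools its libraries, so no value per library exists here, the spread between replicates cannot be given and no test was made. The siOrc6 lists held 109304 peaks untreated and 97816 with H2O2, and the siGl3 lists held 115292 and 103674 peaks under the same treatments. Read depth is unknown, and the lowest peak signal lay just above 200 in all 4 lists. The lowest −log10 of the authors' q-value was 2.09 and 2.00 in the siOrc6 lists and 2.10 and 2.08 in the siGl3 lists, untreated and with H2O2. A peak absent from a list may therefore mean a signal or a −log10 q under these values and not closed chromatin. The knockdown cannot be checked from peaks, and ORC6 itself had a peak over its start in all 4 lists. As a check of the cell type, 8 of 11 osteoblast and mesenchymal markers, among them RUNX2, SP7 and COL1A1, had a peak within 1 kb of a gene end in all 4 lists, while ALPL and TWIST1 had none. Such a peak in all 4 lists was also found at 5 of 11 blood, epithelial and neuronal genes (CD3E, EPCAM, KRT5, SNAP25 and ELAVL4), so that a peak at a gene end did not separate these lineages. Counting was over regions throughout, and the 95% Wilson intervals cover counting error only, since neighbouring regions share libraries and chromatin.

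ORC6 belongs to the origin recognition complex as its smallest member. The complex binds chromatin and loads the MCM helicase at replication origins. In human cells ORC6 also has roles in cytokinesis and in mismatch repair during S phase. Open chromatin is concentrated at gene promoters and at distal enhancers, where transcription factors and nucleosome remodellers such as the ISWI complexes keep DNA accessible. U2OS cells come from bone, and the transcription factors AP-1 and TEAD are known occupants of distal open sites in adherent mesenchymal cells.

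A small number of siOrc6-only regions covered an annotated promoter. These promoters are printed because they are the members whose sequence can be read here. Each window runs from 250 bases before to 50 bases after the annotated start and comes from RefSeq, build GRCh38.p14, in the direction of the gene. The windows are SMARCA1 at chrX:129523441-129523740 (minus strand), ANXA1 at chr9:73151615-73151914 (plus strand), RIIAD1 at chr1:151721272-151721571 (plus strand), SLITRK4 at chrX:143636052-143636351 (minus strand), FRMPD4 at chrX:12065291-12065590 (plus strand) and DPP9 at chr19:4722724-4723023 (minus strand). Capitals mark matches on either strand to the AP-1 motif TGANTCA, the TEAD motif GGAATG, the CCAAT box, the GC box GGGCGG, the TATA motif TATAAA and the GATA motif GATAAG.
SMARCA1 promoter: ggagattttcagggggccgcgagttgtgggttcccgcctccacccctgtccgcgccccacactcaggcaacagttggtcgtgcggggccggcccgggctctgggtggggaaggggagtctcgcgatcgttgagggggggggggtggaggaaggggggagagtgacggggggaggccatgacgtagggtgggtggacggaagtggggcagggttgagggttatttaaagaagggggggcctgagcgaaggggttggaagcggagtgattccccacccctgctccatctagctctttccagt
ANXA1 promoter: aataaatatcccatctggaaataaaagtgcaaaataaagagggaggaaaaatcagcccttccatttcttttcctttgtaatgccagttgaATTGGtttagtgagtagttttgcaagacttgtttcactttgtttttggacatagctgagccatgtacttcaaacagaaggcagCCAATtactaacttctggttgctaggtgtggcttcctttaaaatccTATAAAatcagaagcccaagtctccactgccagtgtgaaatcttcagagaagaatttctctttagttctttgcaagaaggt
RIIAD1 promoter: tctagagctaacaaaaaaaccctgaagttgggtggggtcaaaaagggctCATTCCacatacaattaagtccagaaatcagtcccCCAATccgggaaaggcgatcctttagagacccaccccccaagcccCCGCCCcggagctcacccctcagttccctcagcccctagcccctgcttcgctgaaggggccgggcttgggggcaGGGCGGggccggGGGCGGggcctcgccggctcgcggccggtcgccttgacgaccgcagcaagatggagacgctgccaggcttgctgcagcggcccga
SLITRK4 promoter: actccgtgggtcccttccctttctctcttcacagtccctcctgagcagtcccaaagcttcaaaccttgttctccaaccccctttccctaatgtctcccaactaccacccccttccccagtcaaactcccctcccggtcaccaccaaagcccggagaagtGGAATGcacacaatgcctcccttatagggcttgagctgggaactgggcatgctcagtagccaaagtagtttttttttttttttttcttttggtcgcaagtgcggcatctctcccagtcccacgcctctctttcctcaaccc
FRMPD4 promoter: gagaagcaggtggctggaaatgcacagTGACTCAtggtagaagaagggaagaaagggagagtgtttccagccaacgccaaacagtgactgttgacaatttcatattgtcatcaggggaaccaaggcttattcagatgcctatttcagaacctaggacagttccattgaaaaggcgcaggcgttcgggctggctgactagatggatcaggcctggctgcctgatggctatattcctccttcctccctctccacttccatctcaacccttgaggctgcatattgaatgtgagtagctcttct
DPP9 promoter: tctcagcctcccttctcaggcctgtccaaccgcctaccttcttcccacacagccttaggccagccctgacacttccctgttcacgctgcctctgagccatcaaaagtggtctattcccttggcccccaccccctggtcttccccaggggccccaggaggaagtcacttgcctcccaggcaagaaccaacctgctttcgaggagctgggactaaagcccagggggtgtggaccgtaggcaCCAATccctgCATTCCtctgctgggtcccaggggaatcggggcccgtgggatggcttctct

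These windows differ widely in letters. The ANXA1 window was AT-rich, with 37.7% G and C and 0 CpG, and carried 2 CCAAT boxes and 1 TATAAA. RIIAD1 had 64.7% G and C, 20 CpG and 3 GC boxes. The SMARCA1 window had 66.0% G and C and 17 CpG and none of the capitalised motifs. An AP-1 motif stood in the FRMPD4 window, and a TEAD motif in each of the RIIAD1, SLITRK4 and DPP9 windows. A match is a run of letters and not a bound site.

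Most siOrc6-only regions were narrow, weak peaks. Peak signal is the value assigned to a peak by the authors' caller, and is expressed here as a percentile among all peaks of the same list. In the siOrc6 untreated list the regions had a median percentile of 17.9 (quartiles 9.23 and 30.0, highest 87.8), and in the siOrc6 H2O2 list 11.3 (quartiles 5.11 and 19.6, highest 73.8). The median −log10 q of these peaks was 3.60 untreated and 3.30 with H2O2. Median width was 318 bp (quartiles 230 and 449, range 116 to 1974 bp). For comparison, regions with a peak in all 4 lists had median percentiles of 62.7 and 58.4 in the same lists and a median width of 708 bp. The mirror set, 4674 regions with a peak in both siGl3 lists and no siOrc6 list (siGl3-only regions), was weak too, with medians of 19.8 and 15.97 in its own lists and a width of 347 bp. The rule itself used the peak calls, so these values describe the members and support nothing.

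Only 19 siOrc6-only regions lay above the 50th percentile in both siOrc6 lists, and 213 (10.8%) above the 25th percentile in both. At the other end, 331 (16.8%) lay under the 10th percentile in both. The percentile was higher in the untreated list for 1356 regions (68.7%), although ranks from lists of unequal length do not show a change with H2O2. Spearman's correlation of both percentiles across the 1973 members was 0.36, near the 0.35 of siGl3-only regions in their own lists and far under the 0.93 of regions in all 4 lists. Members share their libraries, and the narrow range of weak signals enters this value. The position was placed alike in both lists: 1962 regions held 1 peak per list, and the summits lay a median of 19 bp apart, within 50 bp in 72.9% of regions. Those figures were 23 bp and 69.6% for siGl3-only regions, and 11 bp and 78.3% for regions in all 4 lists.

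**Figure D1:**
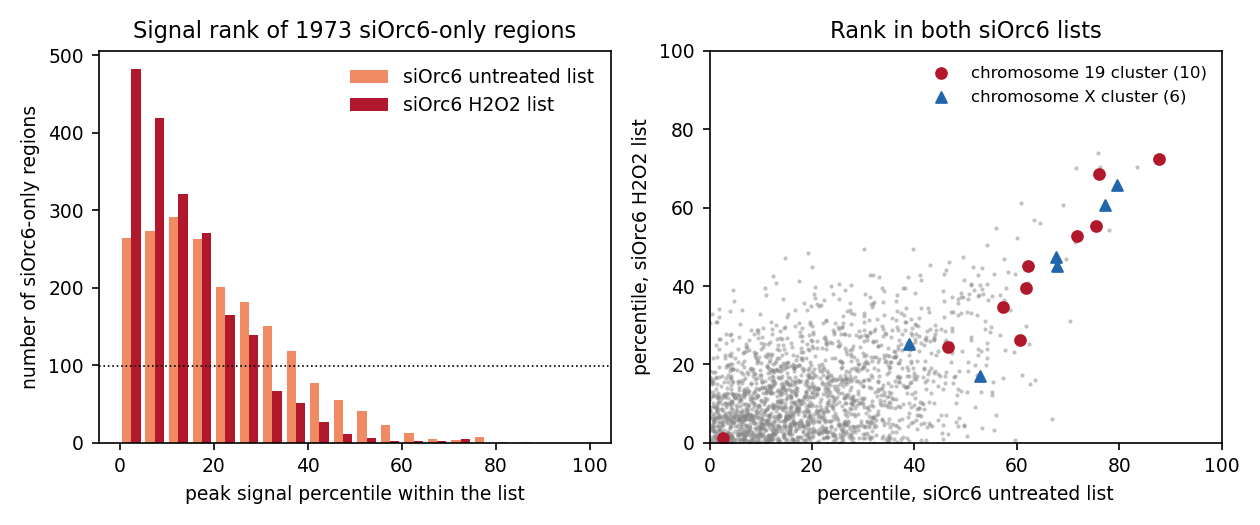
Peak signal percentile of the 1973 siOrc6-only regions within each siOrc6 list. Left, number of regions per step of 5 percentiles, where the dotted line is the number per step if ranks were spread evenly; right, both percentiles of each region, with the clusters on chromosomes 19 and X marked. Most regions sit at low ranks (medians 17.9 untreated and 11.3 with H2O2), while most cluster members rank higher.

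The rule has a sharp edge at weak siGl3 peaks. Just outside it were 4261 regions with a peak in both siOrc6 lists and in the siGl3 untreated list alone, whose siGl3 peaks had a median percentile of 20.5. Another 1659 regions had a peak in both siOrc6 lists and in the siGl3 H2O2 list alone, with a median siGl3 percentile of 16.7. Their siOrc6 peaks stood at median percentiles of 30.8 untreated and 13.2 with H2O2 in the larger set and 15.7 and 21.8 in the smaller one, against 17.9 and 11.3 just inside the rule. Peaks found in siOrc6 cells and in no siGl3 list often appeared under a single treatment: 6841 regions were in the siOrc6 untreated list alone and 1772 in the siOrc6 H2O2 list alone. The siOrc6-only regions were thus 22.4% of untreated and 52.7% of H2O2 regions without a siGl3 peak. For siGl3 the corresponding shares were 37.5% and 54.2%.

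The authors' own lists of regions changed in siOrc6 relative to siGl3 rest on the same libraries as the rule, and are given only as a description. Of the siOrc6-only regions, 725 (36.7%) overlapped a region that the authors' deposited table calls higher in siOrc6 without H2O2, against 6.85% of all merged regions. The share was 23.4% for regions in the siOrc6 untreated list alone. With H2O2 the count of members was 285 (14.4%), against 0.945% of all merged regions and 2.54% of regions in the siOrc6 H2O2 list alone. Of the 213 members left with only peaks above the 25th percentile in the siOrc6 lists, 80.3% and 54.9% were in these lists. Both higher lists held 226 members, and 1189 (60.3%) were in neither. The members in neither list had median percentiles of 12.4 untreated and 9.13 with H2O2, and those in both 39.5 and 25.4. No member overlapped a region that the authors' deposited table calls lower in siOrc6, where the shares of all merged regions were 4.74% untreated and 1.19% with H2O2.

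Many siOrc6-only regions lay close to chromatin that was open in control cells as well. The gap to the nearest siGl3 peak had a median of 4647 bp (quartiles 1038 and 16079 bp) and ran from 51 to 453904 bp. Within 500 bp of a siGl3 peak were 297 regions (15.1%, interval 13.5 to 16.7), while 421 siGl3-only regions (9.01%, interval 8.22 to 9.86) lay that close to a siOrc6 peak. At the far end 159 siOrc6-only regions had no siGl3 peak within 50 kb. Regions near and far differed in where they lay in genes. Among those within 500 bp of a siGl3 peak 58.9% were inside a protein-coding gene, and beyond 50 kb 32.1% were. Their signal was alike, with median untreated percentiles of 16.2 within 500 bp and 19.3 beyond 50 kb. The share in the authors' untreated higher list was 35.4% within 500 bp and 39.6% beyond 50 kb. The share in the authors' H2O2 higher list was larger with distance, at 8.75% within 500 bp, 12.6% from there to 5 kb, 17.1% up to 50 kb and 20.1% beyond.

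**Figure D2:**
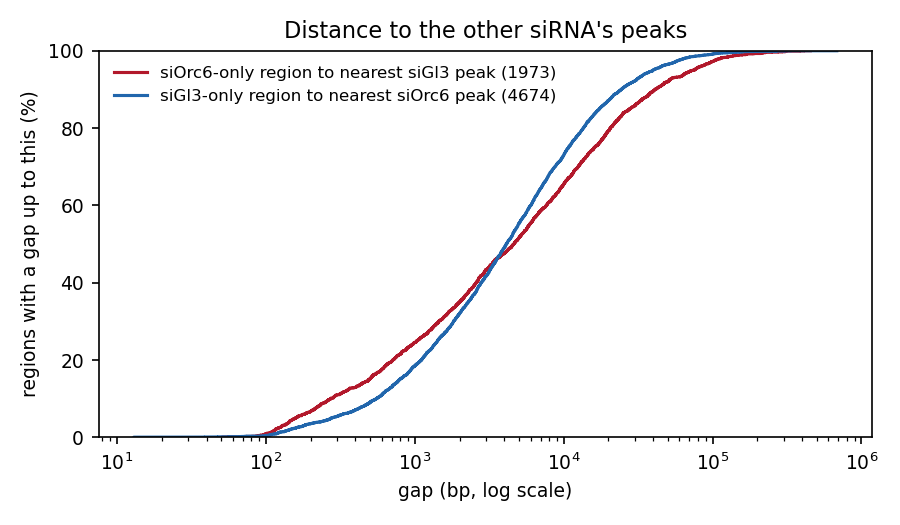
Share of regions (vertical axis, percent) whose gap to the nearest peak of the other siRNA is at most the value on the log-scaled horizontal axis (bp), for 1973 siOrc6-only regions measured to siGl3 peaks and 4674 siGl3-only regions measured to siOrc6 peaks. The siOrc6-only curve is above at short gaps, with 15.1% against 9.01% at 500 bp, and below at long ones, with 91.9% against 96.4% at 50 kb.

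Relative to transcription start sites (TSS), siOrc6-only regions had larger shares than siGl3-only regions at both ends of the distance scale. The start table holds 15812 protein-coding genes on chromosomes other than 8, so distances refer to these starts and to 1883 members. A TSS lay inside 29 members (1.54%), against 0.684% of siGl3-only regions and 13.05% of regions in all 4 lists. Between 1 and 2000 bp from a TSS were 167 members (8.87%, interval 7.67 to 10.2), against 3.26% (2.77 to 3.83) of siGl3-only regions and 3.89% (3.76 to 4.03) of regions in all 4 lists. This difference shrank with peaks up to 500 bp apart joined, at 4.28% of members against 3.03% of siGl3-only regions, and at least 1 kb from any peak of the other siRNA, at 2.61% against 2.23%. With only peaks above the 25th percentile of the set's own lists, it was 5.50% against 2.18%. More than 500 kb from any such TSS were 180 members (9.56%, 8.31 to 10.97), against 5.99% (5.33 to 6.73) and 4.67% (4.52 to 4.82), and above the 25th percentile in the siOrc6 lists the members' share was 16.5%. That share includes most members of a single cluster on chromosome 19, described below, and no siGl3-only value is given under this limit. Inside a protein-coding gene were 888 of all 1973 members (45.0%), against 52.4% of siGl3-only regions and 53.7% of regions in all 4 lists. Within 1 kb of either end of a gene were 174 (8.82%), against 4.36% and 17.5%. With joined peaks these shares were 5.30% of members and 3.99% of siGl3-only regions, and at least 1 kb from peaks of the other siRNA 4.30% and 3.73%.

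**Figure D3:**
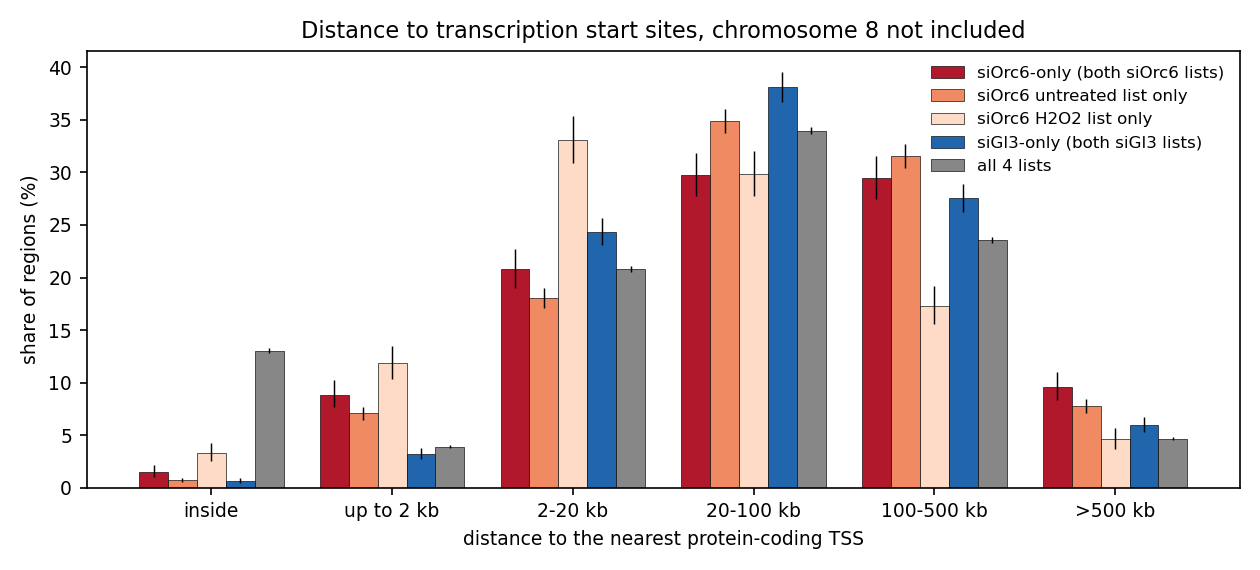
Share of regions (percent, with 95% Wilson intervals as error bars) by distance to the nearest protein-coding TSS, for siOrc6-only regions, regions in 1 siOrc6 list alone, siGl3-only regions and regions in all 4 lists. The siOrc6-only bars are higher than the siGl3-only bars up to 2 kb (8.87% against 3.26%) and beyond 500 kb (9.56% against 5.99%).

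Because the members are weak, they were also set beside weak peaks that control cells shared, both at or under the 25th percentile of a siOrc6 list. The members stayed weaker within this limit, so strength was not made equal. Their median percentiles were 11.9 against 14.2 untreated and 9.04 against 13.6 with H2O2. Among siOrc6 untreated peaks at or under the 25th percentile, 10.6% of 1240 siOrc6-only regions lay 1 to 2000 bp from a TSS, against 4.63% of 17390 regions with a siGl3 peak. In the siOrc6 H2O2 list these shares were 8.44% and 4.47%. The shares with a TSS inside did not separate in this way, at 1.532% and 1.535% untreated and 1.51% and 1.26% with H2O2. Inside a protein-coding gene were 46.7% and 49.9% untreated, and 45.9% and 49.3% with H2O2. Beyond 500 kb they were 7.74% and 5.89% untreated and 8.76% and 5.82% with H2O2. Regions in 1 siOrc6 list alone split by treatment: 7.07% of those in the untreated list alone and 11.8% of those in the H2O2 list alone lay 1 to 2000 bp from a TSS, and 7.75% and 4.63% lay beyond 500 kb. 

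The 167 members beside a TSS were mostly shoulders of promoters open in every condition. In 130 of them (77.8%) a TSS within 2 kb lay under a peak in all 4 lists, against 49 of 143 siGl3-only regions (34.3%) at the same distance. In 25 members (14.97%) and in 75 siGl3-only regions (52.4%) no list had a peak over it. The members lay on the transcribed side of the nearest TSS in 116 cases (69.5%) and before it in 51. For siGl3-only regions the split was 73 and 70. The gap from these members to the nearest siGl3 peak had a median of 425 bp, and 46 of them were in the authors' untreated higher list.

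Several listed genes had such a shoulder. KLF6, a zinc-finger factor induced by serum and stress, carried one 1992 bp into the gene, at percentiles of 37.5 untreated and 23.7 with H2O2. STAT2, which relays type I interferon signals, had one 905 bp into the gene (36.5 and 29.7), in both of the authors' higher lists. H4C8, a replication-dependent histone H4 gene, had one 1146 bp past its start (42.7 and 17.4) and beyond its short body. COL4A1 and COL4A2, basement membrane collagen genes transcribed away from each other, shared 1 member 1085 bp into COL4A2 (22.4 and 3.397). IFITM3, an antiviral membrane protein, had one at 777 bp (8.13 and 10.8), and SOX5, a chondrocyte factor, one at 1219 bp (12.7 and 2.36). SPP1, which encodes the bone matrix protein osteopontin, had its member 583 bp before the start (19.5 and 6.85). The TSS of each of these genes was under a peak in all 4 lists. ROBO2, an axon guidance receptor, differed: its member lay 1373 bp before a start that no list covered, 42497 bp from the nearest siGl3 peak (22.5 and 3.00).

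At promoters themselves 32 members overlapped the windows of 33 genes. The SMARCA1 member, chrX:129522759-129523623, ranked at 4.63 untreated and 38.9 with H2O2. It covers the start of SMARCA1, the second ISWI ATPase beside SMARCA5, and lay 275 bp from a siGl3 peak. The authors' deposited tables of changed regions do not include it. The starts of SMARCA5 and BAZ1B, ISWI subunits, and of ORC6 were under peaks in all 4 lists, with no member within 5 kb. No member lay within 5 kb of BAZ1A either.

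By the lower of both percentiles, the strongest promoter members were those of ANXA1, a phospholipid-binding protein that dampens inflammation, at percentiles of 31.3 untreated and 28.3 with H2O2, and of RIIAD1 at 30.8 and 26.3. TGFBR3L followed at 31.9 and 25.97. SLITRK4, a synaptic adhesion protein, had 22.8 and 23.8 at 1 of its 3 annotated starts, with the nearest siGl3 peak 64097 bp away. A further member inside its gene lay 61681 bp from the nearest siGl3 peak. SKAP2, an adaptor in immune cells, stood at 24.5 and 21.6, and TEKTIP1, a ciliary tubule protein, at 29.9 and 19.1, in a member that also touches MFSD12. AMER2, which restrains Wnt signalling, stood at 25.4 and 17.1. FGF21, a liver hormone, and FUT1, a fucosyltransferase, start back to back and shared 1 member at 15.7 and 19.7. FRMPD4, a postsynaptic scaffold, had 17.6 and 15.6 with the nearest siGl3 peak 51558 bp away. DPP9, a dipeptidyl peptidase that restrains inflammasomes, had 14.3 and 36.7 and was in both of the authors' higher lists. IL21R, a cytokine receptor, had 12.4 and 16.9. FRMPD4 and DPP9 have 5 annotated starts each, and AMER2 and FUT1 2 each, of which the member covered 1. In a single list others ranked higher, RAP1GAP2 at 50.3 untreated but 1.82 with H2O2, and SMARCA1 and DPP9 with H2O2. RAP1GAP2 also has 5 starts, and its member overlapped the window of 1 without covering the start itself. No ordering among these percentiles can be tested with 1 list per condition.

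The promoters under members were poorer in CpG than those open in every condition. The 34 windows under members had a median of 6 CpG and 58.5% G and C, the 42 windows under siGl3-only regions 4 CpG and 57.5%, and the 13504 windows under regions in all 4 lists 27 CpG and 66.0%. Windows under no merged region, 7839 of them, had a median of 6 CpG and 52.7% G and C. A GC box, GGGCGG, stood in 35.3% of windows under members (interval 21.5 to 52.1), against 14.3% (6.72 to 27.8) under siGl3-only regions, 71.6% under regions in all 4 lists and 56.3% of all 22132 windows. The AP-1 motif TGANTCA was in 5.88% of windows under members (1.63 to 19.1), 23.8% (13.5 to 38.5) under siGl3-only regions and 6.15% of all windows. The TEAD motif GGAATG was in 23.5% (12.4 to 40.0), 16.7% (8.32 to 30.6) and 12.2%. CCAAT was in 26.5%, 33.3% and 34.6%, TATAAA in 5.88%, 9.52% and 9.46%, GATAAG in 5.88%, 16.7% and 5.43%, and the E-box CANNTG in 76.5%, 85.7% and 65.1%. With 34 and 42 windows the intervals were wide, and for each of the 7 motifs those of windows under members and under siGl3-only regions overlapped.

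Away from promoters, the members with the highest signal lay mostly outside genes. By the lower of both percentiles the first was chr19:57047194-57048018, 71.1 kb from USP29, at 75.8 untreated and 73.8 with H2O2. The third, chr10:51389748-51390376, lay in PRKG1, a cGMP-dependent kinase gene, at 76.2 and 70.4, only 115 bp from a siGl3 peak. Further ones were chr1:144101355-144102807 at 83.4 and 70.3, 216019 bp from a siGl3 peak; chr8:74667526-74668151 in the noncoding gene MIR2052HG at 71.5 and 70.2; chr12:22415658-22416312, 32.3 kb from C2CD5, at 60.8 and 61.2; and chr17:69967887-69968439 in LINC01497 at 68.9 and 60.7. All 6 were in both of the authors' higher lists. The other 4 of the first 10 belong to the clusters on chromosomes 19 and X. The widest member, 1974 bp, lay in THBS1, the matrix protein thrombospondin-1, at 62.5 and 15.1 and 124 bp from a siGl3 peak. The next, 1844 bp, lay 909 bp into PRR7 at 14.5 and 19.9, and one of 1406 bp in CFAP410 at 55.1 and 37.4.

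Members were spread thinly over genes. A member lay in the gene or within 5 kb of it for 1088 of 19974 protein-coding genes (5.45%), or for 718 with the members at least 1 kb from any siGl3 peak. The hit genes were long, with a median of 77.8 kb against 24.2 kb for all. The share was 2.89% of genes under 20 kb, 4.52% from 20 to 100 kb, 12.5% from 100 to 500 kb and 32.8% of longer genes. Inside gene bodies 795 genes held 1 member, 55 held 2, 4 held 3 and 1 held 4. That gene was RORA, a nuclear receptor gene of 741 kb, with 4 of its 46 merged regions as members and none as siGl3-only regions. Its members ranked low, from 3.25 to 22.9 untreated and 5.92 to 19.2 with H2O2. PPP1R9A (neurabin), CNBD1, SLC9A9 (an endosomal sodium-proton exchanger) and CAST (the calpain inhibitor calpastatin) held 3 each, ranked between 6.94 and 53.1 untreated. SLITRK4 held 2 members and no other merged region in its body. PIGQ, BEST1, MFSD12 and SLC7A5, a large neutral amino acid transporter, held 2 each in bodies under 40 kb.

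The lists of genes for a given function, chosen with earlier results known, are read against the 5.45% of all genes and against length. Of 40 neuronal lineage and synaptic genes 11 had a member (27.5%), but these genes have a median length of 929 kb, and 7 of 29 common fragile site genes did (24.1%) at a median of 1191 kb. In the neuronal list ROBO2 held 2, the stronger at 61.0 untreated and 17.2 with H2O2. The adhesion gene NRXN3 held 2, the stronger at 49.1 and 13.3. Another was the splicing factor RBFOX1, with a member at 31.4 and 37.2. At fragile sites MACROD2 held 2 members, AUTS2 had 1 at 49.0 and 38.2 and MAGI2 1 at 34.4 and 27.8. ROBO2 is in both lists. These shares are near the 32.8% of all genes over 500 kb. Guidance genes, median length 255 kb, had a member in 7 of 31 (22.6%), where the share of all genes from 100 to 500 kb was 12.5%. SEMA5A, a semaphorin, had 2, ranked up to 54.1 and 21.7, and the receptors NRP2, EPHA4 and EPHB1 had 1 each at 20.9, 27.7 and 22.9 untreated.

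AP-1 and immediate-early genes had a member in 5 of 30 genes (16.7%) of median length 4.71 kb, where 2.89% of genes under 20 kb had one. Besides KLF6 these were FOSL2 and JUND, subunits of AP-1, FOSL1, another, and CCN2, a matricellular growth regulator. FOSL2 had its member 6055 bp from the start at 27.7 untreated and 10.0 with H2O2, JUND 3873 bp away at 3.43 and 6.43, CCN2 3349 bp away at 1.46 and 9.52, and FOSL1 at 9.01 and 0.299. All but JUND lay within 1 kb of a siGl3 peak. Thus 1 of 30 genes had a member at least 1 kb from any siGl3 peak, against 3.59% of all genes. FOSL2 is longer than most of the list, in the class from 20 to 100 kb where 4.52% of genes had one. YAP and TEAD target genes had a member in 5 of 22 (22.7%), CCN2 among them. Their median length was 44.1 kb, and 4.52% of genes from 20 to 100 kb had one. Of these, CRIM1 and TEAD1 are longer, in the class from 100 to 500 kb where 12.5% of genes had one. TEAD1, the DNA-binding partner of YAP, held 2 at 22.6 and 16.9 untreated and 5.70 and 8.20 with H2O2. CRIM1 held 2, one at 32.0 and 35.5. AJUBA, a LIM protein of the Hippo pathway, had 23.6 and 14.9, and GADD45A, a stress gene also in the p53 list, 15.6 and 6.79. CRIM1, GADD45A and CCN2 had members only within 1 kb of a siGl3 peak, which leaves 2 of 22 genes with one farther away. Of TGF-beta ligands and matrix genes 4 of 34 had a member, THBS1, the COL4A1 and COL4A2 pair, and COL5A2 at 13.4 and 10.6. Only COL5A2 had one at least 1 kb from any siGl3 peak, so that 1 of 34 was left under that limit. No test of these lists was made, so the counts show where members lie and not a preference.

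Other lists had at most 3 genes with a member each, so that their shares rest on few genes. Interferon response (8.57%), blood and immune (9.09%), Wnt and FGF signalling (7.89%), ISWI (7.14%) and antioxidant genes (5.71%) were above the 5.45% of all genes. The remaining lists ran from 0% for endothelial to 5.26% for epithelial genes. Interferon response genes had 3 of 35, as IFITM1 shares its member with IFITM3 beside STAT2. Antioxidant genes had 2 of 35: FTH1, the ferritin heavy chain, with 2 members past its end, the same as those of BEST1, at 16.7 and 10.5 untreated and 29.8 and 29.4 with H2O2, and GCLC, of glutathione synthesis, at 23.1 and 10.3. Blood and immune genes had 2 of 22, with RUNX1 at 53.01 and 23.4 in both of the authors' higher lists and BCL11B with 2 members at 6.17 and 4.12 untreated and 3.87 and 9.55 with H2O2. Wnt and FGF signalling genes had 3 of 38, with SFRP4, a secreted Wnt antagonist, at 49.7 and 4.29, FGF14 at 13.2 and 9.85 and SPRED2 at 17.3 and 8.81. HOX genes had 2 of 39, HOXD12 and HOXD13, which share 1 member at 17.3 and 8.97. The list of origin and MCM loading factors had 1 of 27, GINS1 of the replicative helicase at 22.2 and 19.3. Base excision and mismatch repair genes had 1 of 31, MSH3 at 4.64 and 6.92, and ISWI subunits 1 of 14, SMARCA1. Histone genes had 1 of 51, osteoblast genes 1 of 22, chondrocyte, muscle and fat genes 1 of 23 and p53 targets 1 of 28, all described above. Epithelial genes had 1 of 19, MUC1 at 8.73 and 12.97, and endothelial genes 0 of 16.

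A long noncoding RNA gene overlapped 332 members (16.8%), against 15.02% of siGl3-only regions and 19.1% of regions in all 4 lists. Pseudogenes overlapped 45 members (2.28%, interval 1.71 to 3.04), against 1.26% (0.980 to 1.62) and 1.65%. Transfer RNA genes lay under 3 members (0.152%, interval 0.0517 to 0.446), against 0.253% of regions in all 4 lists. They lay under 0 siGl3-only regions, which allows a share of up to 0.0821% there by the Wilson interval. The genes under members were TRS-TGA2-1 on chromosome 6 at 9.78 untreated and 32.8 with H2O2, TRL-AAG2-2 on chromosome 6 at 12.1 and 2.16, and TRC-GCA9-3 on chromosome 7 at 8.56 and 1.95. The TRL-AAG2-2 member had the longest gap of all members to a siGl3 peak (453904 bp). No member overlapped a miRNA, snoRNA or snRNA gene, where the interval allows a share of up to 0.194% for each. The shares of regions in all 4 lists were small too, at 0.278%, 0.0624% and 0.0300%.

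By chromosome, the share of merged regions that were siOrc6-only ran from 0.990% on chromosome 17 to 3.00% on X (interval 2.41 to 3.72). Chromosome 21 followed at 2.51% (1.83 to 3.45), then 4 at 2.18% and 13 at 2.01%. This order was not particular to the members. Regions in the siOrc6 untreated list alone also had their highest share on X, 8.09%, followed by 13 at 8.01% and 4 at 7.68%. X was the only chromosome of 23 with more siOrc6-only than siGl3-only regions, 79 against 61. On 22 the order was the opposite, with 1.21% siOrc6-only and 5.75% siGl3-only, the highest share of the mirror set. Without the 1 Mb bin that held 6 members, X still had the highest share, 2.79% (73 of 2620). With only peaks above the 25th percentile in the siOrc6 lists and this bin kept, X was highest at 0.427%. Chromosomes 21 and 19 followed at 0.374% and 0.352%. Members of this X bin mostly ranked above that limit, and the stricter share was not recomputed without the bin. The median member lay in a 1 Mb bin with 5 protein-coding genes, against 7 for siGl3-only regions and 8 for regions in all 4 lists. The median was also 5 for regions in the siOrc6 untreated list alone, and it was 10 for those in the siOrc6 H2O2 list alone. Bins with 0 genes held 170 members (8.62%), against 6.58% and 4.35% of regions in the siOrc6 untreated or H2O2 list alone, 5.18% of siGl3-only regions and 3.84% of regions in all 4 lists.

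**Figure D4:**
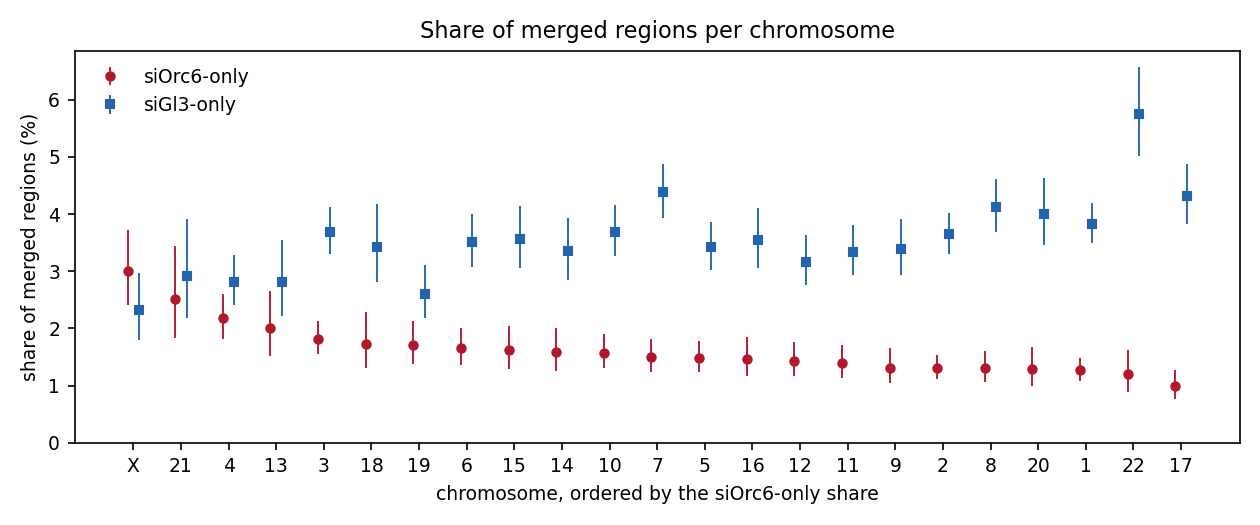
Share of each chromosome's merged regions (percent) that were siOrc6-only and siGl3-only, with 95% Wilson intervals, ordered by the siOrc6-only share. X is highest for siOrc6-only regions (3.00%) and lowest for siGl3-only regions (2.32%), and 22 is highest for siGl3-only regions (5.75%).

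Members were seldom neighbours. Within 10 kb of another member were 82 of them (4.16%), against 632 siGl3-only regions (13.5%) within 10 kb of another of their kind, a set more than double in number. Of 2870 bins of 1 Mb with a merged region, 1495 held 0 members and 939 held 1. The densest was on chromosome 19 from 27634626 to 27742575, in the gene-poor stretch next to the centromere, where 10 of the 31 merged regions of the bin were members and 0 were siGl3-only. These 10 lie within 108 kb, at least 1471 kb from the nearest TSS. They were wide and strong for members, with a median width of 891 bp and percentiles of 2.60 to 87.8 (median 62.0) untreated and 1.34 to 72.3 (median 42.3) with H2O2. All 10 were in the authors' untreated higher list and 9 in the H2O2 one. Over the same span the siOrc6 lists had 16 peaks untreated and 12 with H2O2, and each siGl3 list had 3. The rule gives each of the 10 members a peak in both siOrc6 lists and in no siGl3 list. Much of this difference is therefore fixed by the rule and shows nothing further.

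**Figure D5:**
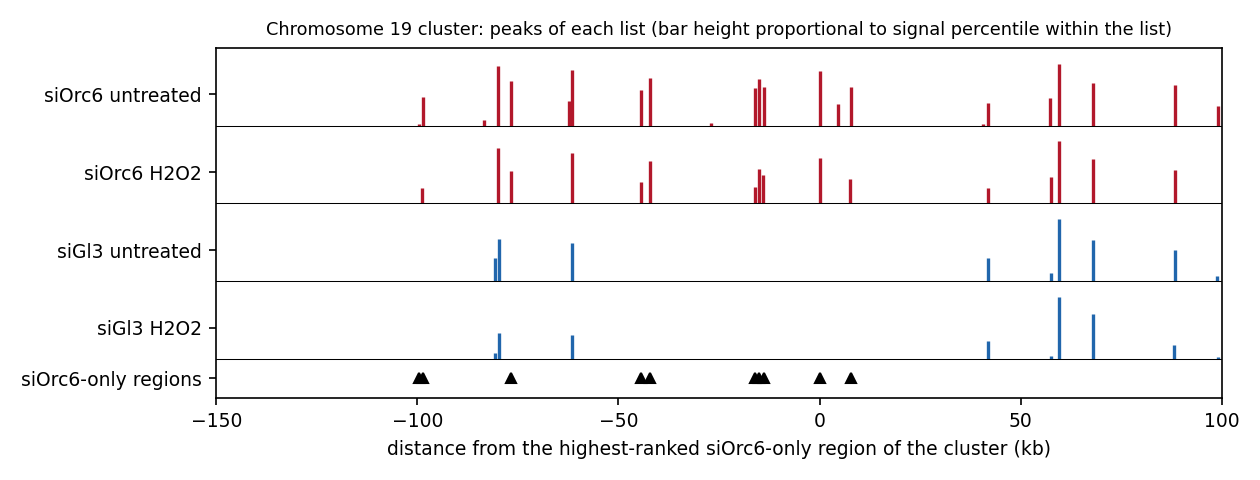
Peaks of the 4 lists around the chromosome 19 cluster, by distance (kb) from the centre of its highest-ranked siOrc6-only region. Bar height is the signal percentile within the list and triangles mark the 10 siOrc6-only regions. The siOrc6 rows show 16 and 12 peaks over the cluster and the siGl3 rows 3 each, a difference that the rule sets in large part. Further to the right all 4 rows have peaks.

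The cluster on X held 6 members from 58084140 to 58246579 beside the centromere, and its whole 1 Mb bin had 14 merged regions and 0 siGl3-only regions. Its members stood at 38.9 to 79.5 untreated (median 67.8) and 17.1 to 65.7 with H2O2 (median 46.2). Over this span the siGl3 untreated list had 1 peak, at a percentile of 13.7, and the siGl3 H2O2 list 0. The siOrc6 lists had 9 peaks untreated and 7 with H2O2, and the rule itself gives the 6 members their siOrc6 peaks. Unlike the members of the chromosome 19 cluster, none of these 6 was in the authors' higher lists. Another bin, on chromosome 10, had 35 merged regions and no protein-coding gene. Its 8 members were spread over 823 kb, from 36173428 to 36996340, and were weak, with medians of 14.6 untreated and 18.1 with H2O2. The bins with members from 86175900 to 86968068 on chromosome 8, with the genes ATP6V0D2, WWP1 and CNBD1 among 8, and from 114132907 to 114610755 on chromosome 11, with ZBTB16, NNMT and REXO2 among 8, were among 5 bins with 5 members each.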

How the data were processed

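ATAC-seq peaks from 8 U2OS libraries in 4 conditions were used. Build hg38 and the tools edgeR, Genrich, deepTools, SAMtools, Picard, Bowtie2 and bcl2fastq 2.20 are listed per the submitters' processing notes, with no role or order. The sources used here do not state how transposase shifts, duplicates or multiply matching reads were handled. Each deposited peak list carries both replicate numbers in its name and was taken as pooled. In the deposited lists column 5 is a display score, column 7 the authors' peak signal, and columns 8 and 9 hold −log10 of the p-value and of the q-value from the authors' caller. Signal was used only as a percentile within a list. The authors' lists of changed regions give positions alone, with a threshold that the sources used here do not state.

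On chromosomes 1 to 22 and X, overlapping or touching peaks were merged, and the regions classed by the lists with a peak. Bedtools 2.31.1 returned the same 1973 regions, and the functions were checked on simulated intervals. Gene positions and promoter windows came from RefSeq tables of GRCh38.p14, which matches hg38. The start table used here has no chromosome 8 starts, and exons and introns were not analysed. Overlap meant at least 1 bp. Intervals of shares are Wilson intervals at 95% confidence. No test was made: each condition has 1 list, and regions are not replicates.

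The members and the 20 gene lists (577 genes) were chosen with earlier results of these data known. Named genes followed a rule: the 10 genes with most members in the body, ties to the shorter; the first 12 with a member at the promoter by the lower of both percentiles; up to 4 per gene list by number of members, then percentile; the 10 members with the highest lower percentile and the 5 widest; the 5 densest 1 Mb bins; and ORC6, SMARCA5, SMARCA1, BAZ1A and BAZ1B always. A gene that the rule names is not reported here. FOSL1, RAP1GAP2 and the tRNA genes go beyond the rule and were named after their values were seen. Alternatives were stricter peaks, joined peaks, distance from siGl3 peaks, other overlaps and windows, and ranking by −log10 p. Python 3.11.15 ran the work with pandas 2.3.3, numpy 2.4.6, matplotlib 3.10.9 and scipy 1.17.1. Unplaced and unlocalised sequences, with 147 to 168 peaks per list, were left out.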

Additional observations from a re-analysis of the deposited data

Results flagged for a closer look

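On unplaced and unlocalised sequences, which the comparisons above leave out, 12 of 204 merged regions had a peak in both siOrc6 lists and no siGl3 list, and 5 had the reverse. The 12 were picked by the same rule as the members, so their pattern is fixed by it, and they are given because these sequences lie outside the main measurement. On chromosomes 1 to 22 and X the balance was the opposite, with 1973 siOrc6-only and 4674 siGl3-only regions. They were given no position or gene.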

How the results depend on the processing

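Of 47 recomputed values 24 stayed within the counting interval of the reported value, or within 1.5 times of it for counts, and 23 moved. With peaks above the 25th percentile in the siOrc6 lists alone, 213 members were left. Of them 80.3% and 54.9% were in the authors' untreated and H2O2 higher lists and 40.8% in a gene. Then 5.50% lay 1 to 2000 bp from a TSS and 16.5% beyond 500 kb. The X share was 0.427%, the highest of any chromosome with the bin of the X cluster included, and was not recomputed without that bin. With that limit in all 4 lists the number of members was 1416, and the authors' lists held 41.4% and 18.6%. Joining peaks up to 500 bp apart gave 1642 members, 5.30% at gene ends, 42.5% in a gene and 4.28% at 1 to 2000 bp from a TSS. At least 1 kb from any siGl3 peak there were 1490 members, with 4.30% at gene ends, 41.3% in a gene, 2.61% at 1 to 2000 bp from a TSS, 11.2% beyond 500 kb, 16.2% in the authors' H2O2 list and 718 genes hit. A gene-end window of 3 kb gave 17.5%. For siGl3-only regions the shares at 1 to 2000 bp from a TSS and at gene ends were 2.18% and 3.71% above the 25th percentile in the siGl3 lists, and 2.23% and 3.73% at least 1 kb from any siOrc6 peak. The construction of each alternative removes members of a given strength or place, and no other cause was tested. The TSS distances with their alternatives, and the alternatives for siGl3-only regions, were chosen after seeing the data. No paired analysis was possible because each deposited list pools both replicates, and for the same reason leaving out a replicate was not run. Depth is unknown, so absence of a peak is limited by the lowest signal and the lowest −log10 q listed.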
